A study of Homo sapiens with 8 samples.

Results

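The genes described here drive the separation of chromosomes and the exit from mitosis. They are 47 genes listed by name: mitotic kinases and their partners, spindle checkpoint adaptors, kinesin motors, kinetochore and centromere proteins, factors of the spindle, of chromosome structure and of cytokinesis, and the anaphase-promoting complex (APC/C) with its coactivators. All 47 were measured, by 54 of the 34127 gene probes on the array, which name 27363 genes in all. The array's own gene names gave 46 of them on 53 probes, and CDK1 was found on 1 probe under its older name by its accession. Among them 40 genes have 1 probe and 7 have 2 probes. Every one of the 54 probes was well above background on all 8 arrays, so no gene was lost to a filter on dim signal.

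The study asked what silencing of HOXB7, a homeobox transcription factor, does to gene expression in pancreatic cancer cells. RNA of 2 human lines was measured on one-color Agilent arrays. MIA PaCa-2 is an established line of pancreatic ductal adenocarcinoma, and Capan-1 was established from a liver metastasis of such a tumor. In each line, 2 arrays hold RNA of cells transfected with 10 nM of a HOXB7-specific siRNA and collected 48 h later, and 2 hold RNA of parental cells, which received no siRNA, so that the 4 groups have 2 arrays each. No array of scrambled-siRNA cells was analysed here, and the labels do not say which siRNA duplex was used, so that transfection and silencing of HOXB7 cannot be told apart. Nothing in the labels says that the 2 arrays of a group came from separate cultures, and p-values then measure only the spread between these arrays. The lines were grown in different media and lie on different slides, so that line, medium and slide cannot be told apart.

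In mitosis, CDK1, Aurora and Polo kinases trigger chromosome condensation and spindle assembly, kinesins move microtubules and chromosomes, and the kinetochore ties each chromosome to the spindle. Kinetochores without a microtubule keep the checkpoint on, which holds the APC/C inactive. Once it is satisfied, the APC/C with its coactivator CDC20 marks securin and cyclin B for destruction, and the sister chromatids separate. Most genes outside the APC/C core are transcribed mainly late in the cell cycle, so their RNA in a culture depends on how many of its cells are dividing. In bulk RNA, fewer dividing cells and less RNA per cell cannot be told apart.

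A level is given throughout as the log2 intensity of a probe minus the 75th percentile of its array, and a difference between groups is a difference of such levels. On this scale 1 is a 2-fold difference. Levels of different probes are not compared, and where a gene has 2 probes its brightest is meant unless said. Between 69.2% and 74.3% of spots were well above background on an array, and no spot was saturated. The 75th percentile itself was lower on the siRNA arrays, by 0.22 (MIA PaCa-2) and by 0.16 (Capan-1), an offset that the scaling removes. Most of it came from 1 parental array of each line. Parental replicate 1 of MIA PaCa-2 stood at 8.36 beside 8.04 on replicate 2, and parental replicate 2 of Capan-1 at 8.28 beside 8.05 on replicate 1. Without these arrays the offsets are -0.06 and -0.04. The targeted gene followed its labels. With siRNA, HOXB7 lay at -7.76 and -7.78 in MIA PaCa-2 and was not well above background. Parental cells had it at -4.82 and -4.09, so that it was at least 2.85-fold lower with siRNA (limma, adjusted p = 0.0173). This call was lost in 9 of 18 alternatives, where the adjusted p ranged from 0.00226 to 0.597, among them the replicate block, the line fitted alone and any Capan-1 array left out, and with normexp background correction the fitted difference was -0.10. In Capan-1 it lay at -5.26 and -4.80 with siRNA and at -2.48 and -2.34 without, a difference of -2.62 that missed the threshold (limma, adjusted p = 0.121). KRT8, KRT18 and KRT19, keratins of epithelial cells, and the epithelial mucin MUC1 were well above background on all 8 arrays. EPCAM and CDH1 were so only on the 4 Capan-1 arrays. The leukocyte genes CD14, CD3E and PTPRC and the endothelial gene CDH5 were so on all 8 arrays too, the endothelial gene PECAM1 on at most 1. Being well above background is thus no mark of a cell type here. Of 7 interferon-stimulated genes, which can respond to transfected RNA, all 7 lay above 0 in Capan-1 siRNA minus parental (median difference 0.81, none past the threshold) and 2 in MIA PaCa-2, where IFI27 alone passed (2.09, limma adjusted p = 0.00563). That call held in 17 of 19 alternatives and was lost with the replicate block and with the line fitted alone (highest adjusted p = 0.107). Their part in the results on mitotic genes was not tested.

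Promoter sequences are shown first for 6 genes, 3 whose RNA was lower at an unadjusted threshold in both lines (HMMR, BUB1B, CENPF), 2 APC/C subunits (ANAPC7, CDC27) and KIF20A, which differed greatly between the parental lines. RefSeq promoters on GRCh38.p14 were found for 41 of the 47 genes. AURKA, BIRC5, BUB3, TPX2, TTK and UBE2C had no entry. Each window runs on the gene's strand from 150 bases before the annotated start to 20 bases after it. Capitals mark the cell cycle homology region (CHR), TTTGAA, and the CCAAT box, each read on both strands, so that TTCAAA and ATTGG are marked too.
HMMR, chr5:163460482-163460651, plus strand: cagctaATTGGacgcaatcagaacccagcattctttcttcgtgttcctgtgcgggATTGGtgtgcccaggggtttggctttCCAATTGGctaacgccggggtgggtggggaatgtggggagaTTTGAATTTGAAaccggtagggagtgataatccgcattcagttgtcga
BUB1B, chr15:40160919-40161088, plus strand: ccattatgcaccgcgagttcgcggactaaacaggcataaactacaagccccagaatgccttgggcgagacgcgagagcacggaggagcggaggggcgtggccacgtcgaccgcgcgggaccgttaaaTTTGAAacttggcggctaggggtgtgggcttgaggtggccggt
CENPF, chr1:214603045-214603214, plus strand: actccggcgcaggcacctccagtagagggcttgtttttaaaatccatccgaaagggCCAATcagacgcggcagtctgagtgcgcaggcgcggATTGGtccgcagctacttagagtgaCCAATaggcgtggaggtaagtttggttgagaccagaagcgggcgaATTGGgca
KIF20A, chr5:138178962-138179131, plus strand: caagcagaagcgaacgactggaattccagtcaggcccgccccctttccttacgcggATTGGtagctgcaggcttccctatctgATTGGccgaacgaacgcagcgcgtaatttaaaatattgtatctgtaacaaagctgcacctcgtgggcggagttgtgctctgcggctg
ANAPC7, chr12:110403689-110403858, minus strand: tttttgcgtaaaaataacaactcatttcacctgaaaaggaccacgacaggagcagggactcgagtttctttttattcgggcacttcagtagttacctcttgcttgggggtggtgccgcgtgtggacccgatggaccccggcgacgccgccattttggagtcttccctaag
CDC27, chr17:47189276-47189445, minus strand: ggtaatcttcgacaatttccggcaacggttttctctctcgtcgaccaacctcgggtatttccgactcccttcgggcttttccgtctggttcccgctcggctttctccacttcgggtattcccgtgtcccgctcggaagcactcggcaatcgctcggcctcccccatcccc

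The HMMR window holds 2 adjacent CHR matches, at -28 and -22 from the start, and 5 CCAAT matches in the full window searched, 2 of which overlap each other. BUB1B has a single CHR match, at -23, and no CCAAT box. In CENPF 4 CCAAT matches were found, and its CHR match, 41 bases past the start, lies outside the stretch shown. KIF20A has 2 CCAAT matches and no CHR match in the window. The shown stretches of ANAPC7 and CDC27 hold no match of either motif, and their full windows hold 1 CHR match (ANAPC7) and 1 CCAAT match (CDC27) further upstream.

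The promoters differed by role. Over the window from 250 bases before to 50 after the start, CHR letters occurred in 21 of the 30 promoters of genes outside the APC/C subunits (70.0%) and in 1 of 11 APC/C subunits (9.09%), against 15.4% of 27305 promoters, 1 a gene. At least 2 CCAAT boxes occurred in 13 of those 30 (43.3%) and in 1 of the 11 subunits, CDC23, against 11.3% of all promoters. Both together were found in 10 of the 30 (33.3%) and in none of the 11, against 1.83% of all promoters. Among 75 promoters of other mitotic genes 46.7% held a CHR match, 34.7% at least 2 CCAAT boxes and 20.0% both. Kinetochore and centromere genes held a CHR match in 5 of 6 promoters, kinesins in 4 of 6, and the spindle, chromosome and cytokinesis factors in 4 of 5. Mitotic kinases held a CHR match in 3 of 5, kinase partners in 2 of 4, checkpoint adaptors in 1 of 1 and the coactivator group in 2 of 3. At least 1 CCAAT box occurred in 20 of the 30 (66.7%) and in 5 of the 11 subunits (45.5%), against 35.7% of all promoters. A match describes letters in this window only and says nothing of whether a factor binds there.

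**Figure D1:**
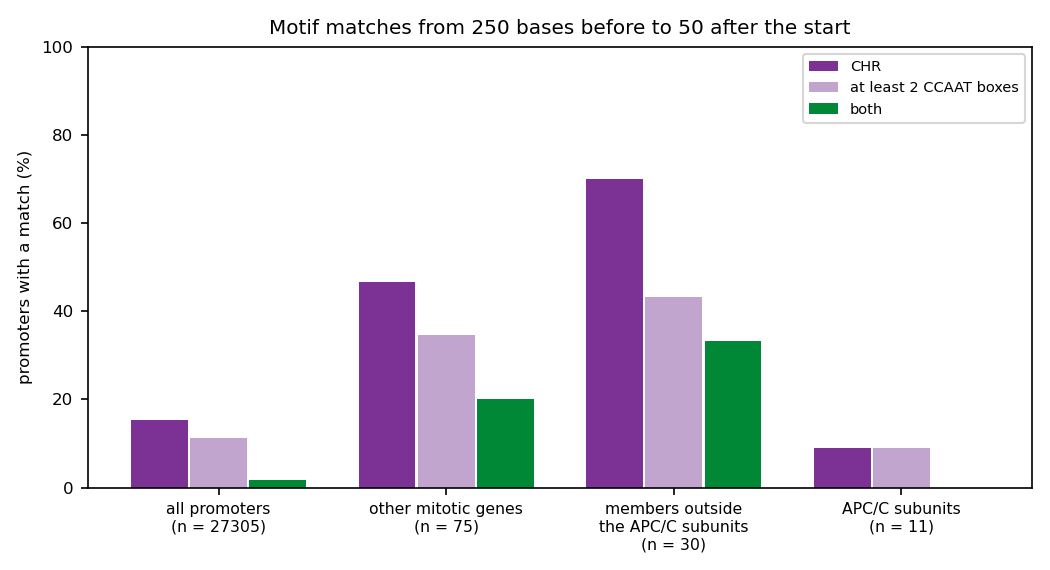
Share of promoters (percent, bars from 0) with a CHR match, with at least 2 CCAAT boxes and with both, in all promoters, in 75 other mitotic genes, in the 30 members outside the APC/C subunits and in the 11 APC/C subunits. The 30 members have the highest bars (70.0%, 43.3% and 33.3%), and the APC/C subunits have 9.09%, 9.09% and 0.

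In cells collected 48 h after HOXB7 siRNA, few of these genes passed the test against parental cells, and few did among all genes tested. In MIA PaCa-2, BIRC5 (survivin, a subunit of the chromosomal passenger complex that positions Aurora B and also an inhibitor of apoptosis) fell 1.65-fold, and it was the 1 gene of 47 that passed the test there. Over all 19221 genes tested in this comparison 1.12% passed as lower and 1.17% as higher, and no mitotic gene of the list passed as higher. In Capan-1 none of the 47 passed in either direction, where 0% of 18938 genes passed as lower and 0.00528% as higher (limma, Benjamini-Hochberg over all probes tested). At an unadjusted p under 0.05, the list gave 8 genes lower in MIA PaCa-2 and 1 higher, beside 11.1% and 12.1% of all genes, and 4 were lower and 2 higher in Capan-1, beside 7.7% and 6.72%. These shares of all genes rest on the pooled spread of the 8 arrays. The 215 lower and 225 higher genes behind 1.12% and 1.17% became 1 and 2 after dropping any single array of Capan-1, 0 and 0 with the replicate block or with the line fitted alone, and 31 and 29 with the prior spread over all probes. They became 28 and 72 without MIA PaCa-2 siRNA replicate 1, 184 and 538 without siRNA replicate 2, 70 and 51 without parental replicate 1, and 91 and 47 without parental replicate 2. At the unadjusted threshold, the 8 are 17.0% of the list, the 1 is 2.13%, the 4 are 8.51% and the 2 are 4.26%.

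The balance of signs leaned below 0. The median difference of the 47 genes was -0.08 in MIA PaCa-2, against 0.02 over all genes tested, and 32 of the 47 (68.1%) lay below 0, against 46.7% of all genes. In Capan-1 the median was -0.06 against 0.00, with 30 of 47 (63.8%) below 0 against 49.7%. Single arrays carried part of these medians. Without parental replicate 2 of MIA PaCa-2 the median there was -0.04 (-0.05 relative to all genes, in place of -0.10), and without siRNA replicate 1 of Capan-1 it was -0.03 in that line (-0.02 relative to all genes, in place of -0.06). The signs also depend on the scaling, since without it 46 and 38 of the 47 lay below 0, and 14 and 8 members changed from above to below 0. For 15 genes in MIA PaCa-2 the 2 siRNA levels were each below the 2 parental ones, and for 4 each above, beside 23.9% and 28.1% of all genes. In Capan-1 this held for 20 and 10 genes, beside 26.9% and 27.3%. No test of the list as a whole was made, since its members were chosen with results of these data known. The 95% interval of the difference lay within a 2-fold change in either direction for 44 of the 47 genes in MIA PaCa-2 and for 46 in Capan-1, and the median distance from the estimate to its bound was 0.25.

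**Figure D2:**
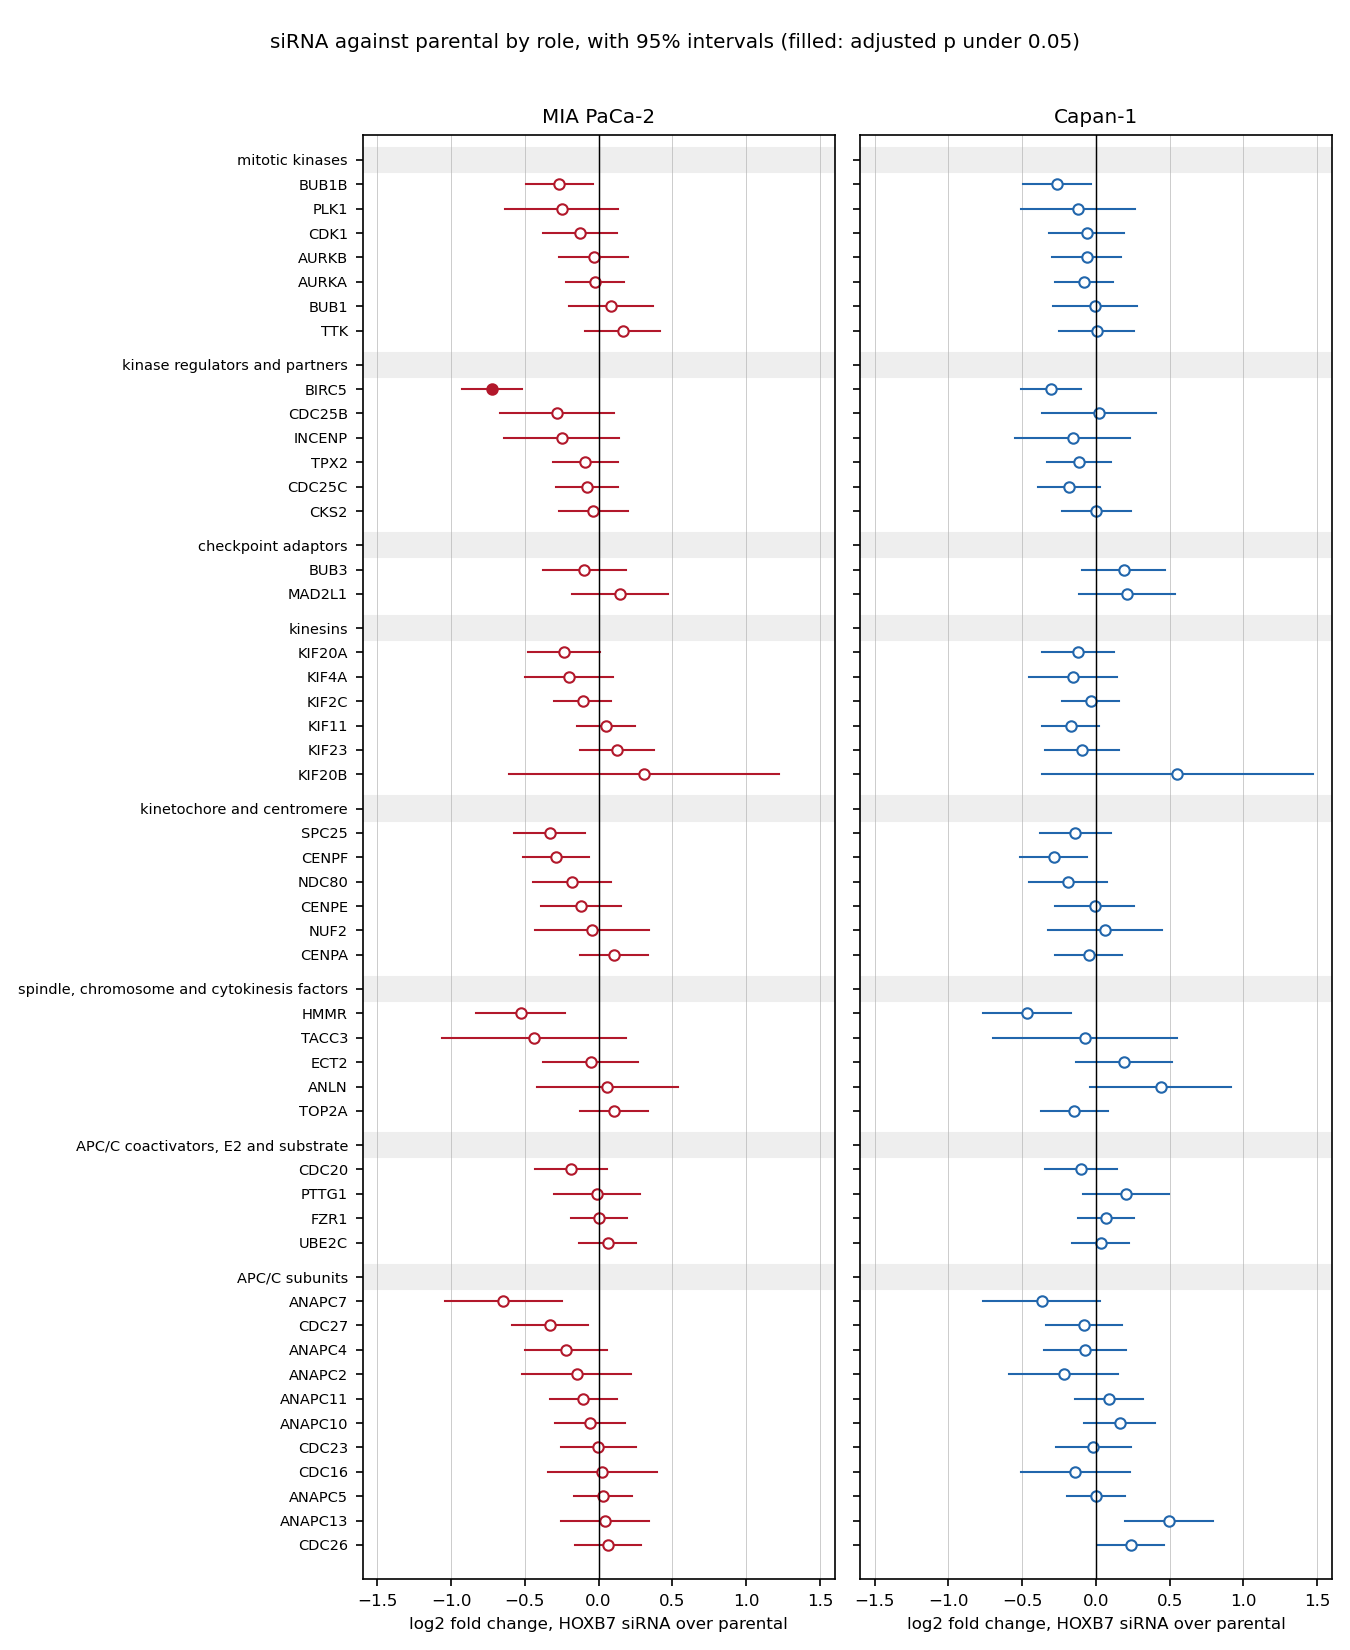
Log2 fold change of HOXB7 siRNA over parental cells (x axis, log2 scale) for the brightest probe of each of the 47 genes, by role, in MIA PaCa-2 (left) and Capan-1 (right). Points are limma estimates from 2 arrays a group and lines are 95% intervals not adjusted for the number of genes. The 1 filled point, BIRC5 in MIA PaCa-2 at -0.72, is the only one past an adjusted p of 0.05.

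BIRC5 was the clearest case among the partners of the mitotic kinases. In MIA PaCa-2 its level was 4.46 and 4.34 with siRNA and 5.11 and 5.14 in parental cells. The siRNA and parental arrays of MIA PaCa-2 lay well apart and did not overlap. The difference was -0.72 (SE 0.084, limma adjusted p = 0.0288). The probe lies on 10 spots of each array, of which 8 to 10 were used, at chr17:73732315-73732374 in the array's hg18 coordinates. The spots of an array varied by an SD of 0.037 to 0.072, and the highest spot of the MIA PaCa-2 siRNA arrays (4.54) was below the lowest of the parental arrays (4.99). On the Capan-1 arrays these spots were 4.41 and 4.51, also apart. Spots repeat a measurement within an array and are no replicates of a group. In Capan-1 BIRC5 lay at 4.30 and 4.33 with siRNA and at 4.65 and 4.59 without. These arrays did not overlap either, and the difference of -0.30 missed the threshold (limma, adjusted p = 0.301). The difference between the lines' effects was -0.42 (95% interval -0.71 to -0.13), which passed at an unadjusted p of 0.0121 and not after adjustment (limma, adjusted p = 0.310).

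The call on BIRC5 rests on few arrays and on settings of the test. Its adjusted p ranged from 0.00106 to 0.170 over 19 alternatives, and 12 of them lost the call, though its difference stayed between -0.94 and -0.66. The call was lost with 7 of the 8 arrays left out in turn, that is all but MIA PaCa-2 siRNA replicate 2, and also when the prior spread of limma was estimated over all gene probes in place of the tested ones, a choice that was settled after both counts had been seen.

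The other 5 partners, which regulate the mitotic kinases or bind them, did not pass in either line. All 6 of this group lay below 0 in MIA PaCa-2 (median -0.17) and 4 of 6 in Capan-1 (median -0.14). INCENP, the scaffold of the chromosomal passenger complex, differed by -0.25 and -0.16 in MIA PaCa-2 and Capan-1. CDC25B, a phosphatase that activates CDK1, differed by -0.28 and 0.02, and TPX2, which activates Aurora A on the spindle, by -0.09 and -0.11.

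Among the 7 kinases none passed after adjustment, and the group medians were -0.03 (MIA PaCa-2) and -0.06 (Capan-1). BUB1B, the checkpoint pseudokinase BubR1 that inhibits the APC/C, had the largest difference of the kinases' brightest probes in both lines. It lay at 1.49 and 1.43 with siRNA and at 1.78 and 1.68 without in MIA PaCa-2. In Capan-1 it lay at 1.67 and 1.52 with siRNA and at 1.82 and 1.90 without. In both lines the siRNA arrays were below the parental arrays with no overlap. The differences, -0.27 and -0.26, had unadjusted p-values of 0.0299 and 0.0304 and adjusted ones of 0.193 and 0.359 (limma).

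PLK1, the Polo-like kinase of mitotic entry and cytokinesis, has 2 probes, and its fainter probe lay at -2.12 and -1.63 with siRNA and at -1.14 and -1.58 without in MIA PaCa-2 (-0.51, limma unadjusted p = 0.0488, adjusted p = 0.241). The siRNA arrays were both lower, the nearest pair by little. Its brighter probe gave -0.25 there, with 1.15 and 1.36 against 1.70 and 1.31, so that the arrays overlapped. The kinases CDK1, AURKA, AURKB, BUB1 and TTK lay between -0.13 and 0.16 in MIA PaCa-2 and between -0.08 and 0.00 in Capan-1.

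The checkpoint adaptors MAD2L1 and BUB3, which with BUB1B and CDC20 form the inhibitor of the APC/C, did not pass in either line. MAD2L1 lay at 2.60 and 2.52 with siRNA and 2.26 and 2.56 without in MIA PaCa-2 (0.14), and the arrays overlapped. In Capan-1 it lay at 2.28 and 2.43 against 2.22 and 2.07 (0.21), a gap in the same direction without overlap. The 2 probes of BUB3 gave 0.19 and -0.12 in Capan-1.

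**Figure D3:**
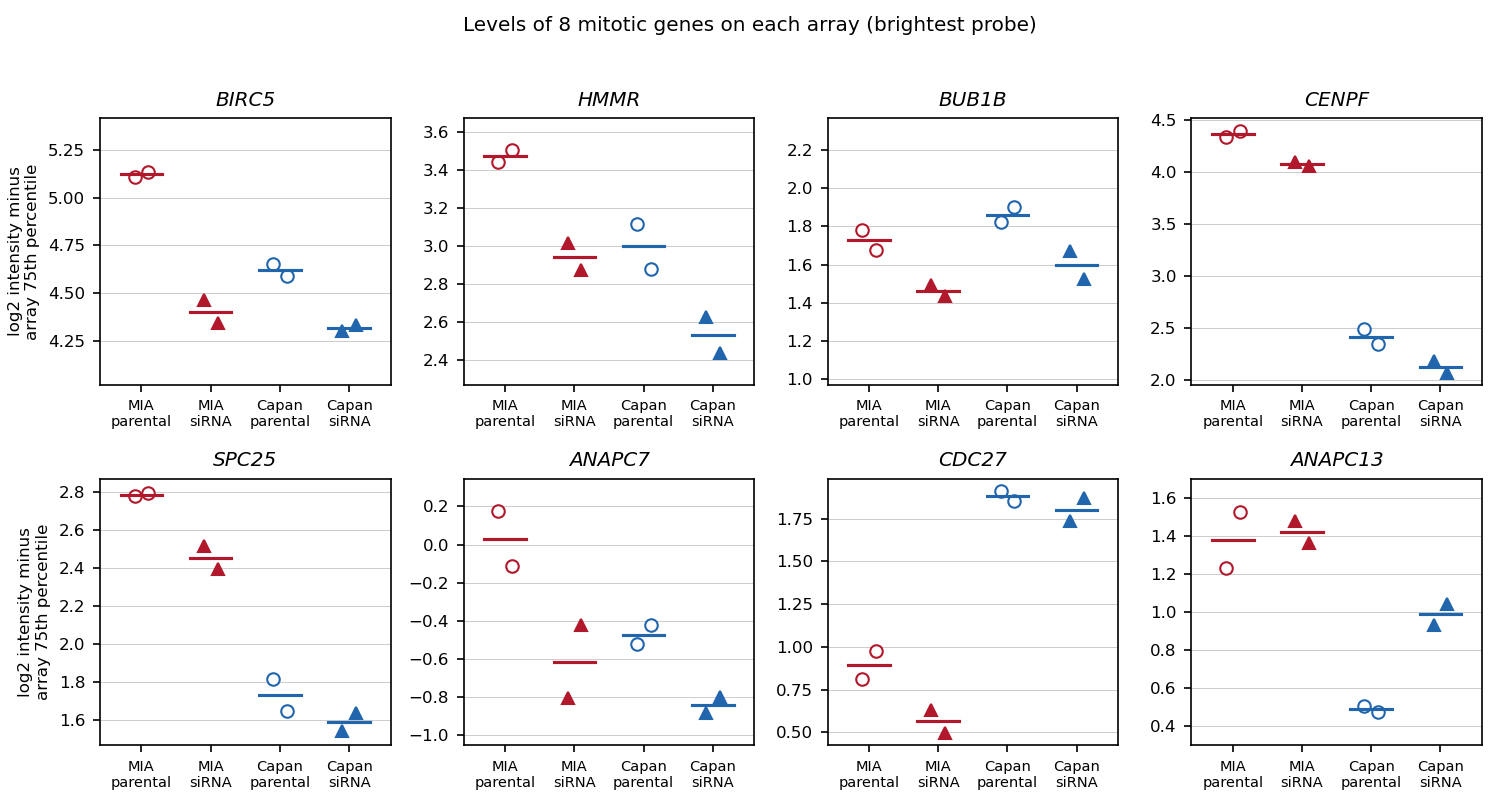
Level of 8 genes on each array (y axis, log2 intensity minus the array's 75th percentile, with its own range in each panel), for parental cells (open circles) and HOXB7 siRNA (filled triangles) of MIA PaCa-2 (red) and Capan-1 (blue). Bars are means of 2 arrays. BIRC5, HMMR, BUB1B, CENPF and ANAPC7 have both siRNA arrays below both parental arrays in each line, and ANAPC13 has its siRNA arrays above the parental ones in Capan-1 alone.

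Factors of the spindle, chromosomes and cytokinesis differed among themselves. HMMR, a microtubule-binding protein that helps to anchor TPX2 at the spindle poles, had the lowest difference of all members in Capan-1 and was among the lowest in MIA PaCa-2. It lay at 3.02 and 2.87 with siRNA and at 3.45 and 3.51 without in MIA PaCa-2, and at 2.63 and 2.44 against 3.12 and 2.88 in Capan-1. The groups did not overlap in either line. The differences were -0.53 (SE 0.12, limma adjusted p = 0.0917) and -0.47 (SE 0.12, limma adjusted p = 0.288), and that between the lines' effects was -0.06 (95% interval -0.49 to 0.36). Normexp background correction and a spread that followed the intensity raised the genes called lower in MIA PaCa-2 from 215 to 492 and 654. HMMR passed the test in MIA PaCa-2 in these 2 of 19 alternatives. Its adjusted p ranged there from 0.00771 to 0.208.

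ANLN (anillin), which organizes the contractile ring, lay at 1.81 and 1.89 with siRNA and at 1.38 and 1.44 without in Capan-1. These arrays did not overlap, and the difference of 0.44 had a limma adjusted p of 0.429. In MIA PaCa-2 the difference was 0.06. TACC3, a microtubule factor that acts with Aurora A, had 1 array apart from the rest in MIA PaCa-2, siRNA replicate 1 at 0.32 beside 1.08 on the other siRNA array and 1.27 and 1.00 on the parental arrays. TOP2A, the topoisomerase that untangles sister chromatids, differed by 0.10 and -0.15, and ECT2, the activator of RhoA at the cleavage site, by -0.05 and 0.19.

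The 6 kinetochore and centromere genes had a median of -0.15 for MIA PaCa-2 and -0.10 for Capan-1, with 5 of 6 below 0 in each. CENPF, a large kinetochore protein that accumulates in G2, lay at 4.10 and 4.05 with siRNA and at 4.33 and 4.40 without in MIA PaCa-2. In Capan-1 it lay at 2.18 and 2.07 against 2.49 and 2.34. The groups did not overlap in either line, and the difference was -0.29 in both (limma, unadjusted p = 0.0202 and 0.0207, adjusted p = 0.162 and 0.339). Its fainter probe gave -0.10 in MIA PaCa-2 but -0.35 in Capan-1 (limma, unadjusted p = 0.0211).

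SPC25, a subunit of the NDC80 complex that holds microtubules, lay at 2.52 and 2.39 with siRNA and at 2.78 and 2.79 without in MIA PaCa-2. The groups did not overlap (-0.33, limma unadjusted p = 0.0153, adjusted p = 0.143). Its difference in Capan-1 was -0.14. The other 2 measured subunits of the same complex, NDC80 and NUF2, gave -0.18 and -0.04 in MIA PaCa-2 and -0.19 and 0.06 in Capan-1. CENPA, the histone variant of centromeres, differed by 0.11 and -0.05, and CENPE, a kinetochore motor, by -0.12 and -0.01.

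Kinesins showed no common direction in MIA PaCa-2, with 3 of 6 below 0 and a median of -0.03, while 5 of 6 lay below 0 in Capan-1 (median -0.11). In Capan-1 the probes of KIF20B and those of KIF23 differed in sign, and these counts use the brighter probe of each. No kinesin passed in either line. The largest estimate was that of KIF20B, a motor needed late in cytokinesis, and it came from single arrays. In Capan-1, KIF20B lay at 0.42 on siRNA replicate 1, while the other siRNA array (-0.61) and both parental arrays (-0.65 and -0.64) lay together. Its fainter probe put the 2 siRNA arrays at -1.36 and -1.25, below the parental ones at -1.09 and -0.93, so that its 2 probes differed in sign there (0.55 and -0.29). In MIA PaCa-2 its brighter probe lay at 0.17 and 0.11 with siRNA and at -0.54 and 0.20 without, and the arrays overlapped.

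KIF23, the motor of the central spindle, was the 1 member that was higher at an unadjusted p in MIA PaCa-2, and only on its fainter probe. That probe lay at 1.06 and 1.00 with siRNA and at 0.57 and 0.87 without (0.30, limma unadjusted p = 0.0396, adjusted p = 0.220). The siRNA arrays were both above the parental ones. The brighter probe gave 0.12. KIF11 (Eg5), which separates the spindle poles, differed by 0.05 and -0.17, KIF20A, a motor of cytokinesis, by -0.24 and -0.12, KIF2C (MCAK), which shortens microtubules, by -0.11 and -0.03, and the chromokinesin KIF4A by -0.20 and -0.16.

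The APC/C was described in its 11 core genes and in its 4 helpers and targets. Of the core genes, 7 lay below 0 in MIA PaCa-2 (median -0.06) and 6 in Capan-1 (median -0.02), and none passed in either line. ANAPC7, a scaffold subunit, had the largest difference. It lay at -0.81 and -0.42 with siRNA and at 0.18 and -0.11 without in MIA PaCa-2, a wider spread than most members had. The groups did not overlap there, and the difference was -0.65 (SE 0.16, limma adjusted p = 0.104). In Capan-1 ANAPC7 lay at -0.88 and -0.80 against -0.52 and -0.43, a difference of -0.37 (limma, adjusted p = 0.424) again without overlap. As for HMMR, its call in MIA PaCa-2 was gained with normexp correction and with an intensity trend, and its adjusted p ranged there from 0.0192 to 0.299.

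CDC27, a scaffold subunit that binds the coactivators, lay at 0.63 and 0.50 with siRNA and at 0.81 and 0.98 without in MIA PaCa-2. The groups did not overlap (-0.33, limma unadjusted p = 0.0196, adjusted p = 0.160). Its fainter probe gave -0.13. In Capan-1 its 2 probes gave -0.08 and 0.17.

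In Capan-1 2 small subunits lay higher with siRNA at an unadjusted p. ANAPC13 lay at 0.93 and 1.04 with siRNA and at 0.51 and 0.47 without, a gap without overlap (0.50, limma unadjusted p = 0.00662, adjusted p = 0.275). In MIA PaCa-2 its arrays overlapped, with 1.48 and 1.36 against 1.23 and 1.52 (0.04). CDC26 lay at 2.40 and 2.50 against 2.27 and 2.16 in Capan-1 (0.24, limma unadjusted p = 0.0390, adjusted p = 0.381). The differences of ANAPC2, ANAPC4, ANAPC5, ANAPC10, ANAPC11, CDC16 and CDC23 lay between -0.22 and 0.16 in both lines.

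The coactivators, the E2 enzyme and the substrate gave medians of 0.00 for MIA PaCa-2 and 0.05 for Capan-1. CDC20, the coactivator of anaphase, lay at 2.85 and 3.07 with siRNA and at 3.19 and 3.11 without in MIA PaCa-2, the largest difference of the 4 there (-0.19), and the groups did not overlap. In Capan-1 PTTG1 (securin, the substrate that guards separase) was the largest, with 5.27 and 5.12 against 5.04 and 4.94 (0.20), also without overlap. FZR1 (CDH1 of the APC/C), the coactivator of late mitosis, differed by 0.00 and 0.07, and the E2 enzyme UBE2C by 0.06 and 0.03. None of the 4 passed.

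Across the 47 genes, the differences in both lines shared their sign for 33 genes (70.2%), beside 61.4% of the 17531 genes tested in both lines. Of the 47, 24 lay below 0 in both lines, 9 above 0 in both and 14 on opposite sides. Pearson's r over the 47 genes was 0.65 and Spearman's rho 0.59, a description across genes, and genes are no independent replicates. Over all 17531 genes the values were 0.28 and 0.31. The sets are unlike, since all 54 member probes were well above background on all 8 arrays. A gene of the 17531 needed this only on both arrays of 1 group in each line. The comparisons with all genes in this paragraph are therefore not like with like. The values of the 47 also include KIF20B, whose estimates came from single arrays. The 2 lines share no array but share the siRNA and the array design. The p-values of both lines also use 1 spread per probe, fitted over all 8 arrays. The lists of the 2 lines at an unadjusted p are therefore not independent. All 4 genes that were lower at an unadjusted p in Capan-1 (BIRC5, BUB1B, CENPF and HMMR) were also among the 8 of MIA PaCa-2, so that the shared genes are 100% of the Capan-1 list and 4 of 8 of the MIA PaCa-2 list. Over all genes tested in both lines, the shared ones were 34.8% of those lower in Capan-1 and 23.4% of those lower in MIA PaCa-2. Averaged over both lines, 1 member passed as lower, BIRC5 (-0.51, limma adjusted p = 0.0292), and none as higher, beside 1.31% and 1.09% of 20628 genes. HMMR came next (-0.50, limma adjusted p = 0.0530). In the test of the difference between the lines' effects no member passed, beside 0.0097% of genes, and 3 did at an unadjusted p (BIRC5, ANAPC13 and the fainter probe of KIF20B), 6.38% of the list beside 13.1% of all genes.

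**Figure D4:**
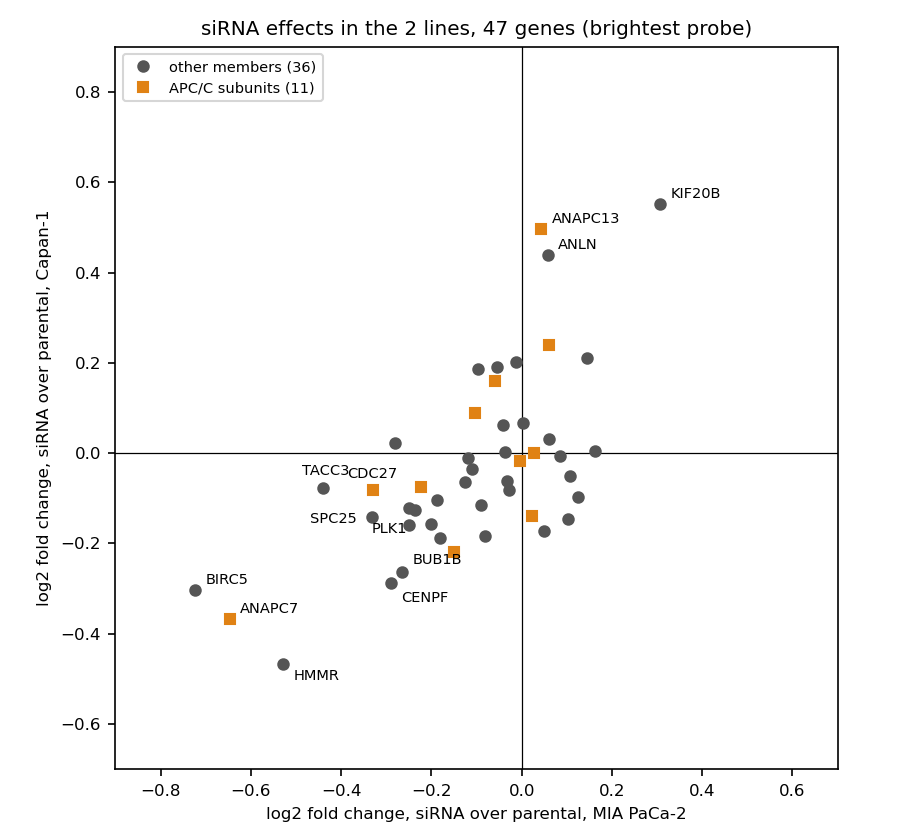
Log2 fold change of HOXB7 siRNA over parental cells in Capan-1 (y axis) against MIA PaCa-2 (x axis) for the 47 genes, with the 11 APC/C subunits as squares. BIRC5, ANAPC7 and HMMR lie lowest in MIA PaCa-2 and below 0 in both lines, and KIF20B at the upper right rests on single arrays.

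Between the parental lines most of these genes differed, as did most of all genes tested. The list departed from all genes in the direction. Of the 47, 33 were higher in MIA PaCa-2 than in Capan-1 and 2 lower (limma, adjusted p under 0.05), beside 40.1% and 31.7% of all 20173 genes tested. That is 70.2% and 4.26% of the list. The median difference was 0.59, against 0.10 over all genes, and 36 of 47 lay above 0. This comparison uses the same parental arrays as the siRNA comparisons, and a slide or medium effect has the same form as a difference between the lines.

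The roles differed in this respect. All 6 kinase partners and all 6 kinesins were higher in MIA PaCa-2 and passed, with KIF20B passing on its fainter probe only. Of the 6 kinetochore and centromere genes 5 passed, and NDC80 did not (0.05). Of the 7 kinases 3 passed, AURKB (1.26), BUB1 (1.06) and TTK (0.91), while PLK1, CDK1, AURKA and BUB1B lay between -0.13 and 0.28 and did not. The APC/C subunits were split, with 6 of 11 higher, 2 lower and 3 not past the threshold.

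The largest difference was that of CDC25C, a phosphatase that switches on CDK1 at mitotic entry. It lay at 0.95 and 0.92 on the parental MIA PaCa-2 arrays and at -1.22 and -1.07 on the parental Capan-1 arrays, 4.22-fold higher in MIA PaCa-2 (limma, adjusted p = 5.46e-06). KIF20A lay at 1.91 and 2.09 against -0.10 and 0.03, 4.11-fold higher (limma, adjusted p = 1.06e-05). The groups lay far apart, as they also did for the next 3 genes.

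NUF2 lay at 2.15 and 2.59 against 0.45 and 0.35, 3.93-fold higher. CENPF lay at 4.33 and 4.40 against 2.49 and 2.34, 3.87-fold higher, and its fainter probe gave 3.88-fold. KIF4A lay at 1.94 and 1.73 against 0.49 and 0.46, 2.56-fold higher, with 2.36-fold on its other probe. These genes act at different steps, NUF2 and CENPF at the kinetochore and KIF4A on chromosome arms.

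The 2 genes that were lower in MIA PaCa-2 are both APC/C subunits. CDC27 lay at 0.81 and 0.98 against 1.91 and 1.85 in parental Capan-1, 1.98-fold lower (limma, adjusted p = 0.000289), and its fainter probe gave 1.39-fold lower. ANAPC10, the subunit that helps to bind substrates, lay at 0.17 and 0.37 against 0.68 and 0.64, 1.31-fold lower (limma, adjusted p = 0.0119). Other subunits of the same complex were higher in MIA PaCa-2, CDC23 by 1.14, ANAPC5 by 1.08 and ANAPC13 by 0.89, so that RNAs of the complex went both ways between the lines.

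**Figure D5:**
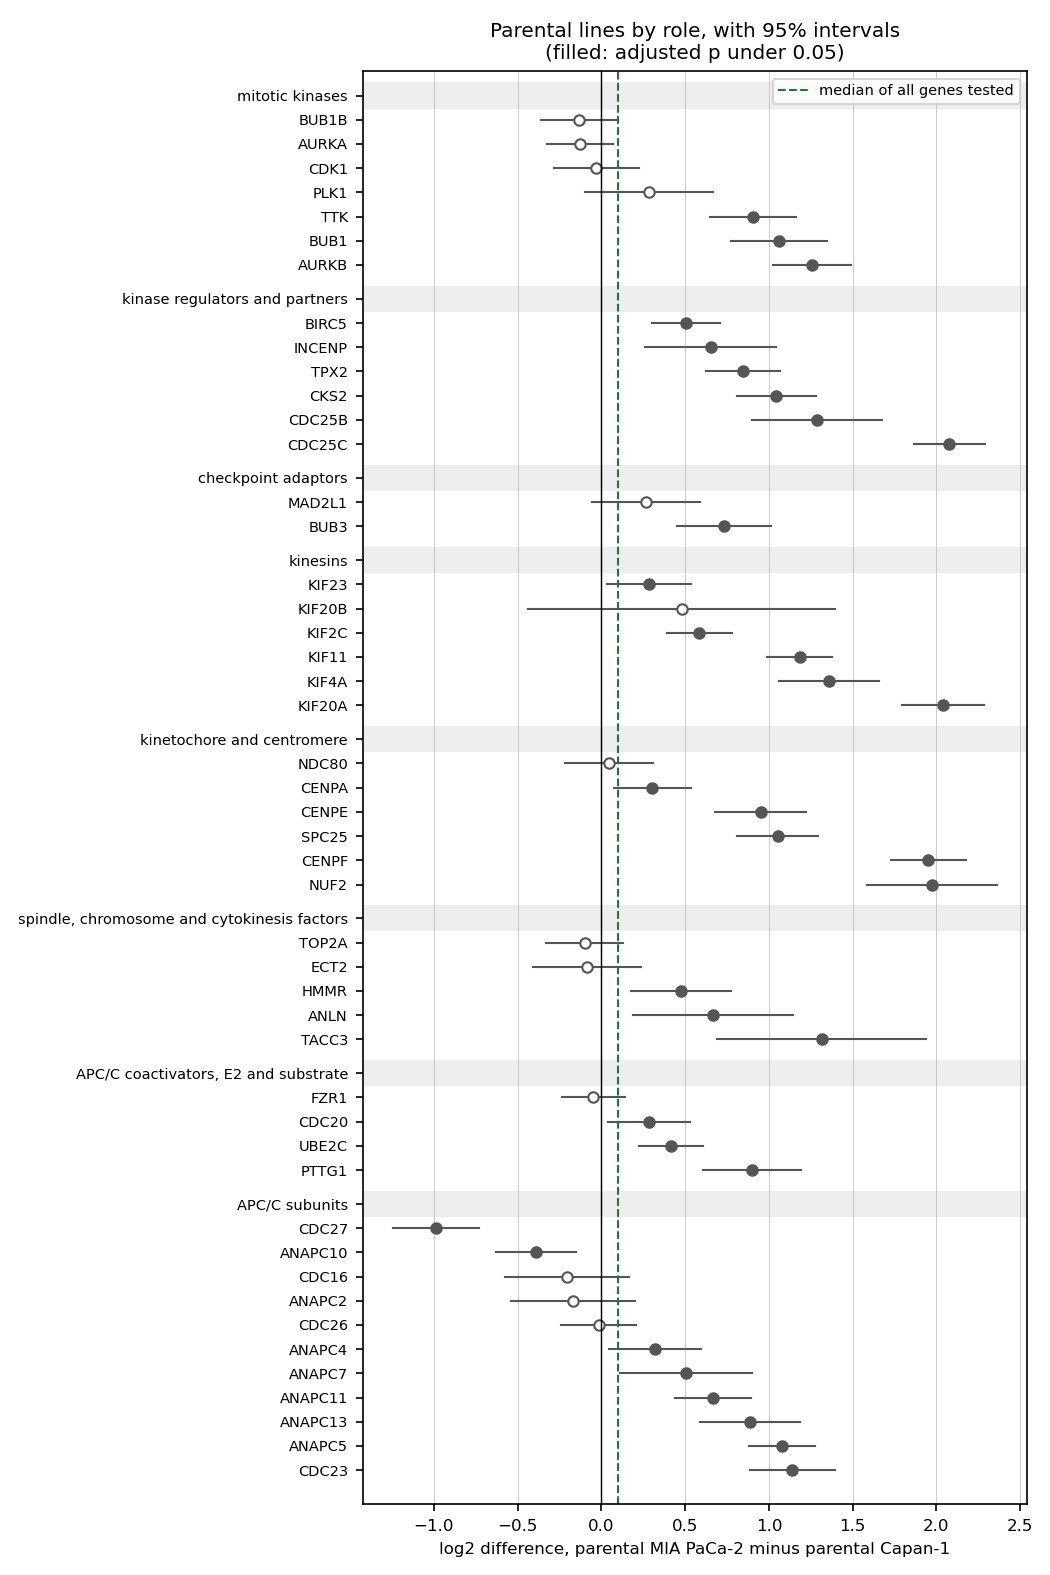
Difference in level between parental MIA PaCa-2 and parental Capan-1 cells (x axis, log2) for the brightest probe of each gene, by role, with 95% intervals from 2 arrays a group; filled points have an adjusted p under 0.05 and the dashed line is the median of all genes tested (0.10). Kinesins and kinase partners lie to the right of 0, CDC25C reaches 2.08, and CDC27 and ANAPC10 are the 2 filled points to the left.

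The wider mitotic machinery was read from 86 further genes, among them cyclins, condensins, cohesins, other kinetochore proteins and the remaining APC/C genes. In MIA PaCa-2 2 of the 86 fell and 1 rose (limma, adjusted p under 0.05), with 49 below 0 and a median difference of -0.04. That is 2.33% and 1.16% of the list, near the 1.12% and 1.17% of all genes, and 57.0% below 0 beside 46.7%. STAG2, a cohesin subunit, fell by 0.70 on 1 of its 3 probes (limma, adjusted p = 0.0266), and its other probes gave -0.13 and -0.39. ANAPC15, the APC/C subunit that helps to switch off the checkpoint, fell by 0.70 (limma, adjusted p = 0.0300). It lay at 0.35 and 0.44 with siRNA and at 1.15 and 1.05 without, with no overlap. CENPP, a centromere protein, rose by 0.63 on 1 probe (limma, adjusted p = 0.0422), while its others gave -0.26 and 0.28. Of 19 alternatives, 12 lost the call on STAG2 (adjusted p from 0.00162 to 0.169), 12 that on ANAPC15 (0.00329 to 0.172) and 13 that on CENPP (0.0116 to 0.370). No gene of the 86 passed in MIA PaCa-2 with any 1 Capan-1 array left out, with the replicate block or with the line fitted alone.

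In Capan-1 none of the 85 tested passed, with 59 below 0 and a median of -0.07. Averaged over both lines, STAG2, NCAPG (a condensin subunit), NUSAP1 (a spindle protein) and ANAPC15 fell and CDC25A, a phosphatase that activates cyclin-dependent kinases, rose, 4.65% and 1.16% of the 86 beside 1.31% and 1.09% of all genes. None of the 86 passed on this average with any 1 Capan-1 array left out or with the replicate block. NUSAP1 gave an even -0.34 and -0.36 in the 2 lines. Between the parental lines 52 of the 86 were higher in MIA PaCa-2 and 10 lower (60.5% and 11.6%, beside 40.1% and 31.7% of all genes), with a median of 0.51 against 0.10 over all genes.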

How the data were processed

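RNA was measured on 8 one-color Agilent 4x44K arrays. The authors scanned them with Feature Extraction 9.5.3 and deposited each spot's background-subtracted intensity with its flags. The log2 values that the authors deposited equal log2 of that intensity (largest difference 3.45e-08) and hold no scaling between arrays. Probe positions are those of the deposited annotation (hg18). Spots without an outlier flag were averaged per probe on the log2 scale, and each array's 75th percentile over gene probes was subtracted. The number of arrays limits the precision.

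The fit of group means used lmFit and eBayes of limma 3.58.1 (R 4.3.3) on 25552 probes, those with both arrays of some compared group well above background, two-sided, with Benjamini-Hochberg adjustment over all probes tested in a comparison and a threshold of 0.05. That the prior spread came from tested probes alone was settled after counts with all probes had been seen. A gene was called when at least 1 probe passed in a direction and none in the other. With 2 arrays against 2, an exact permutation test of a single value cannot go below p = 0.33 and was not used. The bound for HOXB7 sets the group with signal against each array's background floor. The fit was tested on simulated data.

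The members, their roles and the list of 86 other mitotic genes were chosen with earlier results of these data known. Values on every array are given for the target, each member past the adjusted threshold in an siRNA comparison or past an unadjusted 0.05 in a line, the largest difference of each role in each line, and the 5 largest differences between parental lines, and from the 86 those past the adjusted threshold are named. Part of that rule named members by their level within a role and was left out, since levels of different probes are not comparable. Further members were named after their values were seen, to describe each role. Promoters are RefSeq's, at the first listed start of a gene. Alternatives were other background corrections, scalings, filters, probe rules, variance models, the interval step of the study's rule (a 99% interval of parental log2 ratios) and leaving out each array. The conditions of that rule on several probes of a gene were not applied, and BIRC5, HMMR, ANLN and ANAPC13 have 1 probe each. Python 3.11.15 (matplotlib 3.10.9, pandas 2.3.3, numpy 2.4.6) and the R package data.table (version 1.17.8) were used for tables and figures.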

Additional observations from a re-analysis of the deposited data

How the results depend on the processing

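Over all genes, the 215 called lower in MIA PaCa-2 became 492 with normexp background correction and 654 with a spread that followed the intensity. The number of members called lower there, 1 as reported, became 3 and 3 in these settings. It became 0 with no scaling between arrays, with no filter on dim probes, with the cell line fitted alone, with the replicate block, and with the prior spread over all probes, an alternative added after seeing the data. It was 0 to 1 when single arrays were left out, and 8 at an unadjusted p under 0.05, where 1 was higher. In Capan-1, with 0 in each direction as reported, 4 were lower and 2 higher at an unadjusted p. By the 99% interval of the parental arrays, 1 was lower there (HMMR) and 2 higher (ANLN, ANAPC13), each on 1 probe. In MIA PaCa-2 that interval marked BIRC5 as lower. The interval has no control for the number of genes tested. Its share over all genes is not given here, so these counts describe no trait of the list. The number called lower on the average of both lines, 1 as reported, was 5 with normexp, 5 with the trend, 4 with probes well above background on all 8 arrays, 2 with quantile normalization, and 0 with no scaling, no filter, the replicate block and the all-probe prior, and 0 to 1 with single arrays left out. The 2 members lower in parental MIA PaCa-2 became 1 with no scaling and 1 to 2 with single arrays left out, 1 without Capan-1 parental replicate 1. With no scaling the median differences of the members were -0.30 (MIA PaCa-2) and -0.22 (Capan-1), and those of all genes -0.20 and -0.16. The causes were not tested. Of the 17 single-probe differences recomputed under the alternatives, none changed its sign, but among all 47 members 14 (MIA PaCa-2) and 8 (Capan-1) went from above to below 0 with no scaling, 6 and 6 changed sign with normexp and 1 and 4 with quantile normalization, and the median of all genes in MIA PaCa-2, 0.02 as reported, was -0.01 with quantile normalization. Replicate numbers did not pair the arrays (correlation of deviations 0.023 and 0.038), and the replicate block, which costs degrees of freedom, gave BIRC5 in MIA PaCa-2 an adjusted p of 0.170 (limma).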
